A study of Mus musculus with 10 samples.

Results

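The extracellular matrix is the protein and sugar scaffold outside cells, and integrins are the paired alpha and beta receptors that tie cells to it. The genes described here were chosen by symbol, as probes whose single annotated gene symbol is that of a collagen chain, a laminin chain, an integrin subunit, a fibulin, a nidogen, tenascin C or R, or 1 of a short list of matrix proteins and proteoglycans. The rule found 86 probes for 84 genes of the 13840 genes named on the array, and where a gene had several probes, the 1 with the highest mean was used. The prefix also caught 4 genes, Itgb1bp1, Itgb1bp2, Itgb3bp and Itgbl1, that encode integrin-binding proteins or an integrin relative and no matrix or integrin chain. They stay in the counts and are described apart.

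RNA levels were read on 10 single-channel Applied Biosystems arrays as part of a comparison of array platforms. A set of 5 arrays held RNA of adult retina, pooled from 350 C57/B6 mice with no age in days given, although their titles contain P1, a label that the sources do not explain. The other 5 held RNA of cortex at postnatal day 1, pooled from 19 mice, which the sample descriptions call C57/B6 and the series text calls Swiss-Webster. Each set of 5 arrays repeats 1 pool, so every p-value below measures the spread between arrays and not between animals, and tissue cannot be told apart from age or, possibly, strain. No genotype or treatment is given. The tissues carried their defining transcripts: the rod gene Pdc was at 20.48 ± 0.17 in retina, against 8.91 ± 0.46 in cortex, and the cortical neuron gene Neurod6 at 10.03 ± 0.47 in retina, against 17.79 ± 0.07 in cortex (log2 intensity, mean ± SD of 5 arrays).

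Collagens form fibres, sheets and networks from triple helices of 3 chains. Sheets of collagen IV and laminin, joined by nidogen and heparan sulfate proteoglycans such as agrin, make the basement membranes that line blood vessels, the pia over the brain and the inner surface of the retina. Neural tissue itself is poor in fibrous collagen, and its own matrix is built from hyaluronan, the lectican proteoglycans and the tenascins, with much of the fibrous matrix coming from meninges and vessels. In the eye, collagens II, IX and XI form the mixed fibrils of the vitreous body, as they do in cartilage.

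More matrix and integrin genes were called lower than higher in adult retina against newborn cortex, the largest number had no call, and 8 of the 9 higher genes were collagens. Of the 84 genes, 9 were called higher in retina, 36 were called lower and 39 were not called, where a call needed an adjusted p under 0.05 (limma, Benjamini-Hochberg over 33012 probes) and at least a 2-fold difference. Of all probes, 12.1% were called higher and 13.3% lower, and of the 14411 probes with 1 gene symbol, 14.1% and 14.8%. The 84 genes were thus called higher in 10.7% of cases and lower in 42.9%. Their median difference, retina minus cortex on the log2 scale of quantile-normalized intensity, was -0.23, against -0.01 over all probes. It was -0.72 without normalization between arrays (all probes -0.41), -0.12 with an offset of 500, -1.26 without probes below the median in both tissues, and -0.34 without retina replicate 1. The 5 retina values lay above the 5 cortex values in 12 of the 84 genes (19.2% of all probes) and below them in 35 (21.2% of all probes). In this pooled tissue RNA, fewer cells of a type and less RNA per cell cannot be told apart.

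No detection calls were used, so dim signal was judged against 747 probes named for olfactory receptors, whose 95th percentile was 10.77 in retina and 10.65 in cortex (log2 intensity). Below it, a value was taken as dim. Of the 747 probes, 34 were called higher or lower. Both tissues were dim for 33 of the 84 genes. Among them, 25 were not called and their values were not read as a result on either tissue, and 8 were called from dim signal, 2 higher and 6 lower. A further 17 of the lower genes were dim in retina, and 5 of the higher genes were dim in cortex, so dim signal partly sets how large those differences are. Neither tissue was dim for the remaining 15 called genes, 2 higher and 13 lower.

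Most fibre-forming collagens were lower in retina. Among 9 measured genes, lower calls numbered 6, higher calls 1 and genes without a call 2, and the median difference was -2.56. Col3a1 (probe 908253, chromosome 1), a chain of the soft connective tissue collagen III, read 7.21, 9.88, 9.37, 9.68 and 9.70 on the retina arrays, against 15.74, 15.70, 15.66, 15.69 and 15.69 on the cortex arrays. Retina array 1 was the lowest by far, all 5 retina values were dim, and the tissues did not come near each other. The difference was -6.53 (SE 0.362, limma adjusted p = 8.25e-11), and it was -6.04 without that array.

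Both chains of collagen I, the main fibre of skin, bone and meninges, had means above the dim range, although Col1a1 read in it on 2 of the 5 retina arrays. Col1a2 read 12.09, 11.83, 11.82, 11.62 and 11.72 in retina, against 14.83, 14.75, 14.77, 14.51 and 14.70 in cortex, a difference of -2.89 (SE 0.0863, limma adjusted p = 2.26e-14). Col1a1 had a mean of 10.84 ± 0.24 in retina, against 13.40 ± 0.06 in cortex (± SD over 5 arrays each), making a difference of -2.56. Thus the 2 chains of this collagen were lower by like amounts. Col5a1 and Col5a2, chains of collagen V, which sits inside collagen I fibres, were at -1.46 and -2.94, and Col11a1 at -3.17. Col5a3 (-0.03) and Col11a2 (-0.07) were dim in both tissues.

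Col2a1 (probe 906748, chromosome 15), the chain of the cartilage and vitreous collagen II, was the only 1 of the 9 called higher. It read 12.88, 12.87, 12.55, 12.44 and 12.54 in retina, against 10.08, 9.94, 9.85, 9.17 and 9.83 in cortex, where it was dim. The groups lay far apart, with a difference of 2.88 (SE 0.172, limma adjusted p = 2.24e-10), a 7.37-fold excess in retina.

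**Figure D1:**
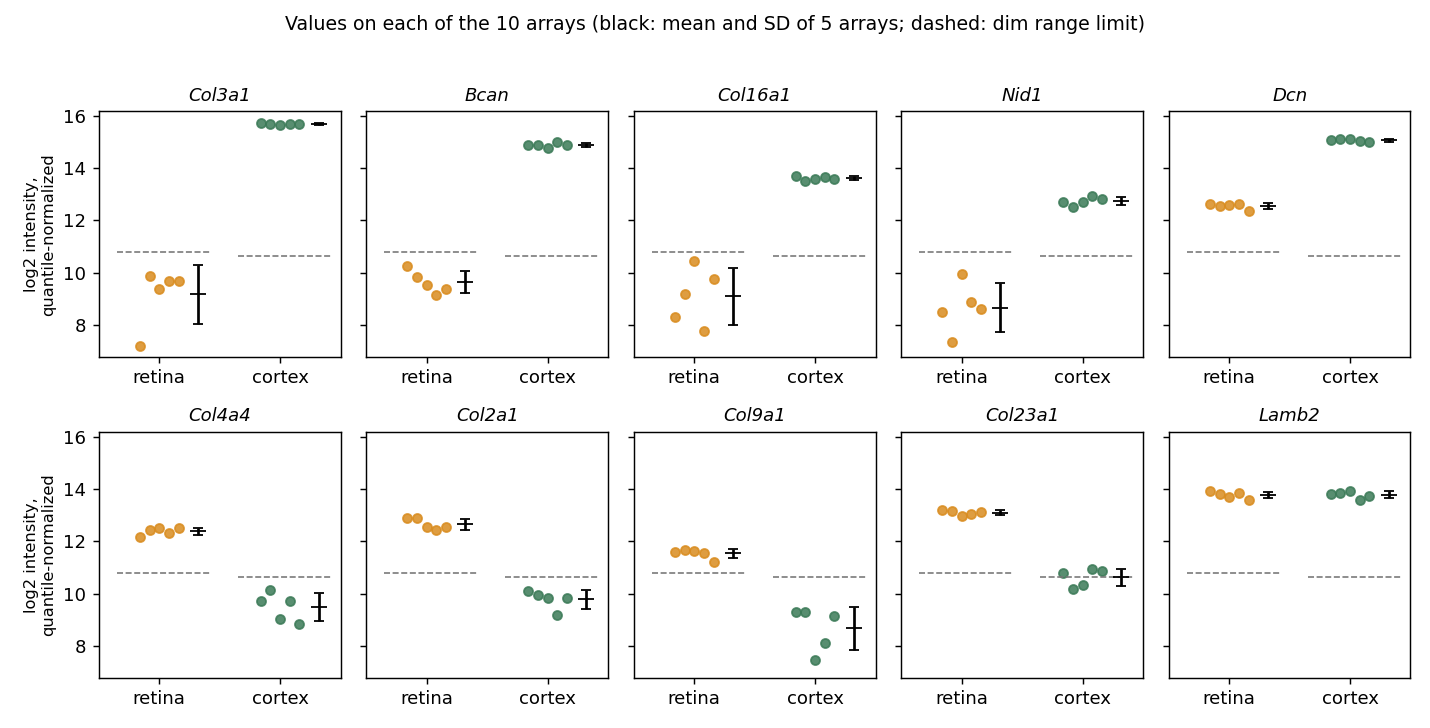
Log2 intensity (vertical axis, quantile-normalized) on each retina array (left, orange) and cortex array (right, green) for 10 genes, with the mean and SD of 5 arrays in black and the limit of the dim range as a dashed line. Col3a1, Bcan, Col16a1 and Nid1 are bright in cortex and dim in retina, Dcn is above the limit in both, Col4a4, Col2a1, Col9a1 and Col23a1 are brighter in retina, and Lamb2 overlaps between the tissues.

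Collagen IV, the sheet collagen of basement membranes, split by chain. Of 6 genes, Col4a4 and Col4a6 were higher in retina, Col4a1 was lower, and 3 were not called. Col4a4 (probe 656491, chromosome 1) read 12.16, 12.42, 12.50, 12.32 and 12.50 in retina, against 9.72, 10.13, 9.03, 9.73 and 8.84 in cortex. Every retina value was above the dim range and every cortex value in it, with a difference of 2.89 (SE 0.22, limma adjusted p = 5.5e-09). Col4a6 was at 13.52 ± 0.20 in retina, against 11.99 ± 0.13 in cortex (± SD over 5 arrays each), making a difference of 1.54.

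Col4a1 and Col4a2 encode the chains of the common collagen IV of vessels and pia. Col4a1 read 11.48, 12.14, 12.60, 11.78 and 11.86 in retina, against 14.34, 14.24, 14.19, 14.41 and 14.22 in cortex, a difference of -2.30 (SE 0.149, limma adjusted p = 6.33e-10). Col4a2 read 12.65, 12.71, 12.39, 12.58 and 12.63 in retina, against 13.34, 13.28, 13.31, 13.23 and 13.35 in cortex, a difference of -0.71 (SE 0.0698, limma adjusted p = 1.53e-07), short of 2-fold. The tissues did not overlap for either gene. Without normalization between arrays, Col4a2 was called, at -1.10.

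The collagen IV genes lie in head-to-head pairs. In the RefSeq table of GRCm38.p6 the annotated starts of Col4a1 and Col4a2, on opposite strands of chromosome 8, are 21 bases apart. Those of Col4a6 and Col4a5 on chromosome X are 1343 bases apart. In each of the 3 pairs, Col4a1 with Col4a2, Col4a4 with Col4a3, and Col4a6 with Col4a5, 1 gene was called and its neighbour was not, although Col4a3 (0.41) and Col4a5 (-0.45) were dim in both tissues.

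The other collagens were divided, with 5 of 19 genes higher, 5 lower and 9 not called, 6 of the 9 being dim in both tissues. Col9a1 (probe 729442, chromosome 1), a chain of the fibril-coating collagen IX, read 11.58, 11.68, 11.63, 11.57 and 11.21 in retina, against 9.29, 9.31, 7.47, 8.12 and 9.13 in cortex. The cortex values were dim and spread widely, and the difference was 2.87 (SE 0.332, limma adjusted p = 1.1e-06). Its partner chain Col9a3 went the other way, at 12.03 ± 0.06 in retina, against 13.27 ± 0.12 in cortex (± SD over 5 arrays each), making a difference of -1.24, and the third chain gene, Col9a2, was dim in both tissues (-0.14).

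Col23a1, a membrane-spanning collagen, read 13.21, 13.15, 12.98, 13.03 and 13.11 in retina, against 10.77, 10.19, 10.33, 10.95 and 10.85 in cortex, a difference of 2.48 (SE 0.14, limma adjusted p = 1.02e-10). A second, dimmer probe of the gene was at 0.97 and was not called, with all 5 retina values above the cortex values. Col7a1, the anchoring fibril collagen, and Col8a1, a network collagen known from the cornea, were higher by 1.79 and 1.44, although Col8a1 was at 0.98, under 2-fold, without normalization between arrays. Col17a1, a collagen of hemidesmosomes, was called at 1.37 (SE 0.46, limma adjusted p = 0.021) from values dim in both tissues that overlapped. Its call was lost without retina replicate 1, without retina replicate 5 and without cortex replicate 5, with differences down to 1.14.

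Among the 5 lower genes, Col16a1 (probe 920493, chromosome 4), a fibril-associated collagen, read 8.29, 9.19, 10.45, 7.78 and 9.77 in retina, against 13.72, 13.52, 13.58, 13.66 and 13.57 in cortex. All retina values were dim, and the difference was -4.51 (SE 0.362, limma adjusted p = 1.1e-08). Col26a1, Col15a1 and the collagen VI chain gene Col6a2 followed at -2.65, -2.56 and -1.98. Col6a1, which encodes the partner chain of Col6a2 and is its neighbour on chromosome 10, was at 12.90 ± 0.08 in retina, against 12.39 ± 0.09 in cortex (± SD over 5 arrays each), making a difference of 0.50 with no overlap and under 2-fold. Without normalization between arrays, the difference of Col6a1 was 0.11 (limma adjusted p = 0.289). Col19a1 (0.57) and Col18a1 (0.62) also lay above cortex on every retina array without reaching 2-fold.

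The promoters of 3 lower and 3 higher genes are shown, chosen with their values known, because members that moved together can be compared by the letters before their starts. Each line gives the 250 bases before an annotated start, 5′ to 3′ on the gene's strand, from RefSeq (GRCm38.p6). Capitals mark the CCAAT box (CCAAT or its complement ATTGG), the GC box (GGGCGG or CCGCCC) and the TATA box (TATAAA or TTTATA), searched on both strands, and no motif contains another. Col9a1 has a pair of starts, and the array probe does not tell which was used. The genes lower in retina come first.
Col3a1, chr1:45311288-45311537, plus strand: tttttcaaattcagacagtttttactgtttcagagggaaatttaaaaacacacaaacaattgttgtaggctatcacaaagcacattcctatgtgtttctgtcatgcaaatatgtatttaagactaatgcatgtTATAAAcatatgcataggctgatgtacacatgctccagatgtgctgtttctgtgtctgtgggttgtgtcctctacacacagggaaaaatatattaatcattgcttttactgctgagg
Bcan, chr3:88000357-88000606, minus strand: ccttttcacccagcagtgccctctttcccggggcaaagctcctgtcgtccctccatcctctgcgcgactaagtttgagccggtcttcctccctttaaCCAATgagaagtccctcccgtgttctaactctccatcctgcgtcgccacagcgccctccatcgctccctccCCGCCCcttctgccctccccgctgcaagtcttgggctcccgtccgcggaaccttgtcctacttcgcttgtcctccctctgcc
Col1a2, chr6:4505368-4505617, plus strand: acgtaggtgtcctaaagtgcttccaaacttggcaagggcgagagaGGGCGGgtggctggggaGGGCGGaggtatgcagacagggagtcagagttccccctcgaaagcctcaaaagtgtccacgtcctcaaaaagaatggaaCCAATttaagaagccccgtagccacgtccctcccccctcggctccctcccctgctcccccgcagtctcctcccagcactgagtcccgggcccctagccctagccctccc
The genes higher in retina follow.
Col9a1 (upstream start), chr1:24177360-24177609, plus strand: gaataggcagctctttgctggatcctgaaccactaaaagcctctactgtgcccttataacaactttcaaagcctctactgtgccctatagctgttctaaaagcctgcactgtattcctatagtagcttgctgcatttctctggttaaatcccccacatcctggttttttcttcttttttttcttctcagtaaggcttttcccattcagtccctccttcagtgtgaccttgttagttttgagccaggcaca
Col9a1 (downstream start), chr1:24194953-24195202, plus strand: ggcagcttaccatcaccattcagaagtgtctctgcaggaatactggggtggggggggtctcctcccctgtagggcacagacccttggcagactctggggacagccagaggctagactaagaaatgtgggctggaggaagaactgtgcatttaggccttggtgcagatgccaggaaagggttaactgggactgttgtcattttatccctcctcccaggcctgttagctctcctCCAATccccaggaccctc
Col4a6, chrX:141474077-141474326, minus strand: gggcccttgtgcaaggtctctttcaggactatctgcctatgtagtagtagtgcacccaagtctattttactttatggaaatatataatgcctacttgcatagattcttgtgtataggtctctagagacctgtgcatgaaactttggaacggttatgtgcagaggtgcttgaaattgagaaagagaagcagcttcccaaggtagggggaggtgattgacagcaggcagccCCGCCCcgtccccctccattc
Col23a1, chr11:51289670-51289919, plus strand: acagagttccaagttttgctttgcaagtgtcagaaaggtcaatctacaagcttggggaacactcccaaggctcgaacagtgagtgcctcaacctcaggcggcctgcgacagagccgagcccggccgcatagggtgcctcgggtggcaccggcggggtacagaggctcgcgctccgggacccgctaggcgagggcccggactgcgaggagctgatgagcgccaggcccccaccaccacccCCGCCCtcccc

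Col3a1 held a TATA box alone, while Bcan and Col1a2 held CCAAT and GC boxes. Among the higher genes, the downstream start of Col9a1 held a CCAAT box, its upstream start none of the 3 motifs, and Col4a6 and Col23a1 a GC box each. Over the 32851 windows of this length in the table, 33.8% held a CCAAT box, 32.7% a GC box and 12.4% a TATA box. The table had 72 windows for 62 of the 84 genes, of which 20, 41 and 9 held these motifs. Of 9 windows of higher genes, 3, 4 and 1 did so, and of 31 windows of lower genes, 10, 21 and 5. A match is only a match of letters.

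Laminin and basement membrane linker genes were lower or not called. Among 10 laminin and linker genes, 6 were lower and 4 had no call (median -1.22). Nid1, which encodes the nidogen that joins laminin to collagen IV, read 8.49, 7.36, 9.95, 8.89 and 8.61 in retina, against 12.69, 12.53, 12.72, 12.95 and 12.83 in cortex, a difference of -4.08 (SE 0.334, limma adjusted p = 1.43e-08). Its relative Nid2, bright in both tissues, was at 12.80 ± 0.15 in retina, against 15.69 ± 0.06 in cortex (± SD over 5 arrays each), making a difference of -2.89. Agrn, the gene of agrin, was at -2.21 (SE 0.0662, limma adjusted p = 2.32e-14).

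The laminin beta chains differed from each other. Lamb1, the widespread beta chain, was at 12.60 ± 0.11 in retina, against 13.86 ± 0.16 in cortex (± SD over 5 arrays each), making a difference of -1.26. Lamb2, the beta chain known from the inner retinal surface, from around photoreceptors and from neuromuscular synapses, read 13.92, 13.82, 13.69, 13.83 and 13.59 in retina, against 13.79, 13.84, 13.93, 13.59 and 13.74 in cortex. The groups overlapped fully, with a difference of -0.01 (95% confidence interval -0.17 to 0.15). Without normalization between arrays, the difference of Lamb2 was -0.39 (limma adjusted p = 0.000827), under 2-fold, where the median of all probes was -0.41. Lama4, the vascular alpha chain, was at -1.18 and Lamb3, an epithelial chain dim in both tissues, at -2.01. Lama1, Lama2 and Lamc3 were dim in both tissues and not called, although Lamc3 (0.95) was called higher after median centring and without retina replicate 3, retina replicate 5 or cortex replicate 3 (up to 1.16 with 1 array left out).

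Among the genes of the matrix made by neural tissue itself, most were called lower in retina. Of 7 brain proteoglycan, tenascin and reelin genes, 5 were lower and 2 had no call (median -2.72). Bcan (probe 646184, chromosome 3), which encodes brevican, read 10.24, 9.85, 9.54, 9.16 and 9.39 in retina, against 14.88, 14.87, 14.79, 15.02 and 14.89 in cortex. Retina was dim throughout and cortex varied little, with a difference of -5.25 (SE 0.154, limma adjusted p = 1.85e-14), 38.1-fold. The versican gene Vcan and the neurocan gene Ncan were at -3.83 and -3.35, again with retina dim, and a second Ncan probe was called in the same direction at -2.06. Acan, the aggrecan gene, was called at -1.20 from values dim in both tissues that overlapped, and it lost the call without retina replicate 4 (-0.89).

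Tenascins parted. Tnc, the tenascin of glial precursors and injured tissue, read 13.20, 13.56, 13.57, 13.36 and 13.41 in retina, against 16.03, 16.13, 16.04, 16.23 and 16.27 in cortex, a difference of -2.72 (SE 0.0723, limma adjusted p = 5.1e-15). Tnr, the tenascin of oligodendrocytes and perineuronal nets, was at 11.39 ± 0.13 in retina, against 11.24 ± 0.20 in cortex (SD, n = 5), with overlapping values and a difference of 0.15 (95% confidence interval -0.13 to 0.43). Reln, which encodes the layering signal reelin, was at 0.34 (95% confidence interval -0.00 to 0.69) and was not called.

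The 4 small leucine-rich proteoglycan genes that the symbol rule takes in, Dcn, Lum, Ogn and Bgn, encode proteins that bind collagen fibres, and all 4 were lower in retina. Dcn, the decorin gene, read 12.64, 12.56, 12.59, 12.61 and 12.36 in retina, against 15.06, 15.11, 15.13, 15.06 and 14.99 in cortex, a difference of -2.52 (SE 0.0603, limma adjusted p = 1.35e-15). It was the only 1 of the 4 above the dim range in both tissues. Ogn (-3.05) and Lum (-2.98) were dim in retina, Bgn (-1.95) was dim in both, and Bgn was no longer called once an offset of 500 was added to the intensities (-0.98). Lum lies next to Dcn on chromosome 10, and Col5a2 next to Col3a1 on chromosome 1, and both neighbours were lower in both cases. In the other neighbouring pairs, those of collagen IV, Col6a2 with Col6a1 and Col9a1 with Col19a1, 1 gene was called and the other was not.

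Fn1 and the 3 measured genes with an Fbln symbol were lower, and Sparc and Sparcl1 were not called. Fn1, the fibronectin gene, was at 13.26 ± 0.18 in retina, against 14.79 ± 0.07 in cortex (± SD over 5 arrays each), making a difference of -1.52 (SE 0.0756, limma adjusted p = 1.89e-11). The fibulin genes Fbln2, Fbln1 and Fbln5, whose proteins bridge elastic fibres and basement membranes, were at -3.98, -2.82 and -1.63, each with retina dim. Sparc, whose protein binds collagen, was at 14.62 ± 0.16 in retina, against 14.37 ± 0.07 in cortex, with an overlap, and differed by 0.25. Sparcl1, the hevin gene of astrocytes, was at 18.33 ± 0.11 and 18.44 ± 0.08 in the same order, a difference of -0.11 (95% confidence interval -0.24 to 0.02).

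**Figure D2:**
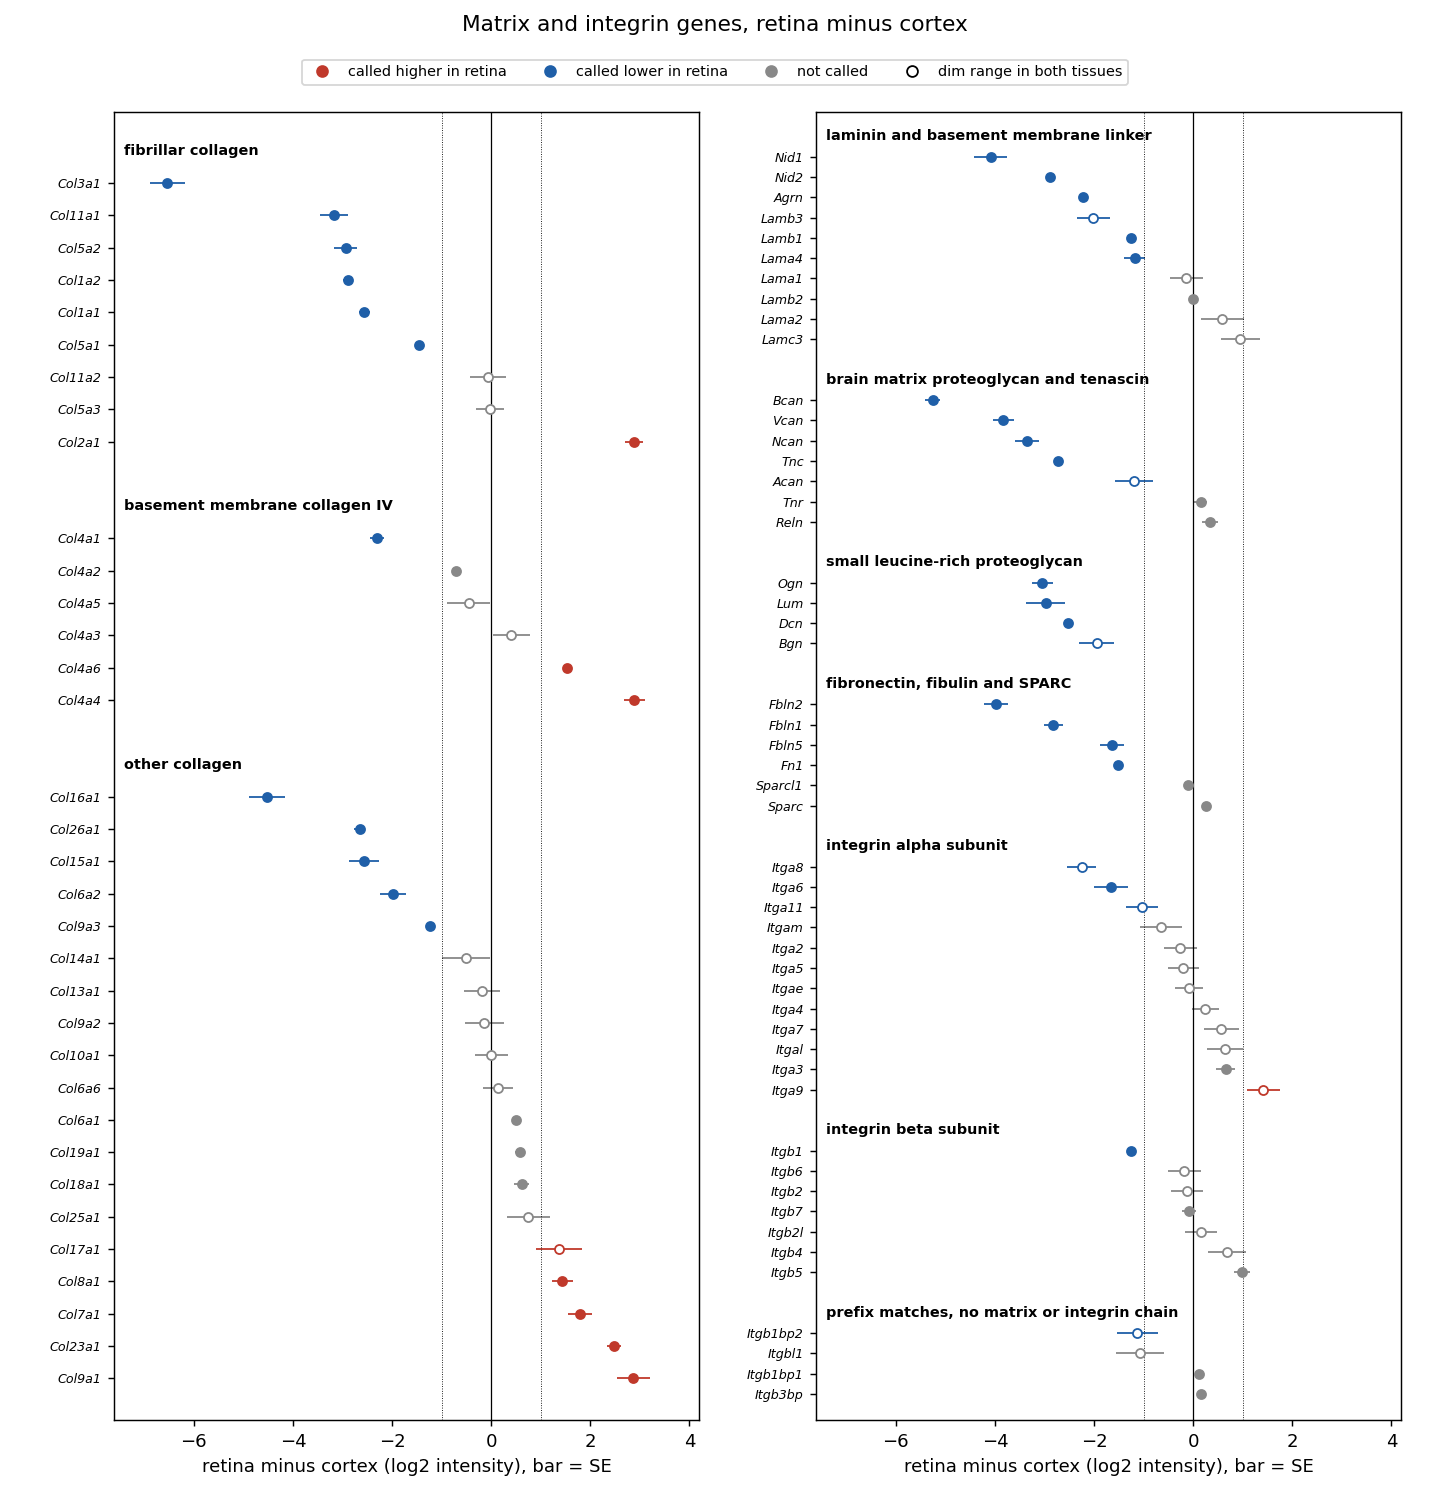
Difference of each of the 84 genes, retina minus cortex in log2 intensity, with its standard error, grouped by role (collagens left, all others right). Red marks genes called higher in retina, blue lower and grey not called, open points are dim in both tissues, and dotted lines mark 2-fold. No matrix gene other than a collagen was called higher, and 14 of the 19 integrin subunits are open points.

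Integrin subunits were mostly too dim to read. Of 19 measured, 14 were dim in both tissues, 1 was called higher, 4 lower and the other 14 had no call. Itgb1, the beta subunit shared by most matrix receptors, was bright in both tissues and read 13.47, 13.61, 13.63, 13.68 and 13.57 in retina, against 14.73, 14.75, 15.00, 14.94 and 14.84 in cortex. The groups did not overlap, with a difference of -1.26 (SE 0.0623, limma adjusted p = 1.81e-11). Itgb5, which pairs with the alpha V subunit in the receptor that pigment epithelium uses for shed photoreceptor tips, read 12.02, 12.01, 12.46, 12.32 and 12.03 in retina, against 11.35, 11.17, 10.71, 11.03 and 11.68 in cortex. All its retina values were above the cortex values, with a difference of 0.98 (SE 0.161, limma adjusted p = 5.76e-05), just short of 2-fold. It was called after median centring of the arrays (1.07) and without any 1 of 5 arrays, retina replicates 1, 2 and 5 and cortex replicates 1 and 5, at up to 1.11. The difference was smaller, and not called, without normalization between arrays (0.53) and with an offset of 500 (0.84).

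Among the alpha subunits, lower calls numbered 3 of 12, higher calls 1 and genes without a call 8. Itga6, a laminin receptor subunit, read 8.19, 9.62, 9.52, 9.69 and 10.51 in retina, against 11.54, 11.42, 11.52, 10.65 and 10.69 in cortex, a difference of -1.66 (SE 0.349, limma adjusted p = 0.000672). Itga8 (-2.25), Itga11 (-1.03) and Itga9 (1.42), subunits that pair with beta 1, were called from values dim in both tissues. The call of Itga11 was lost without any 1 of 4 arrays, retina replicates 4 and 5 and cortex replicates 2 and 5, with differences from -0.98 to -0.85, and that of Itga9 was lost without normalization between arrays (0.92). Itga3, another laminin receptor subunit, was at 0.66, and Itgb7, a leukocyte subunit, at -0.09. The leukocyte subunit genes Itgal, Itgam, Itgae and Itgb2 were dim in both tissues, as were all 4 measured leukocyte and microglia markers, of which Aif1 was called lower (-1.57).

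Of the 4 genes that share only the name, Itgb1bp1 (0.12) and Itgb3bp (0.15) were bright in both tissues and not called. Itgb1bp2, which encodes the muscle protein melusin, was called at -1.13 (SE 0.412, limma adjusted p = 0.0322) from dim, overlapping values. It lost the call without retina replicate 1 (-0.78), retina replicate 5 or cortex replicates 1, 2 or 3. Itgbl1 was dim in both tissues and not called.

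Genes whose products assemble together, or are close relatives, had unlike differences in several pairs. The 13 pairs set out here were chosen with their values known, so the gaps between the 2 differences are descriptions with no test. The largest gap was between Col2a1 and Col11a1, chains of 1 kind of mixed fibril, whose differences lay 6.06 log2 units apart, followed by Col9a1 and Col9a3 at 4.11. Tnc and Tnr lay 2.87 apart, Col6a1 and Col6a2 2.49, Itgb1 and Itgb5 2.24, Col4a6 and Col4a5 1.99, Col4a1 and Col4a2 1.60, and Lamb1 and Lamb2 1.25. Both genes were lower in the nidogen pair, with a gap of 1.19, and in collagen I, with the smallest gap, 0.33. Where 1 gene of a pair was dim in a tissue, as in 8 of the 13, dim signal partly sets the size of the gap.

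**Figure D3:**
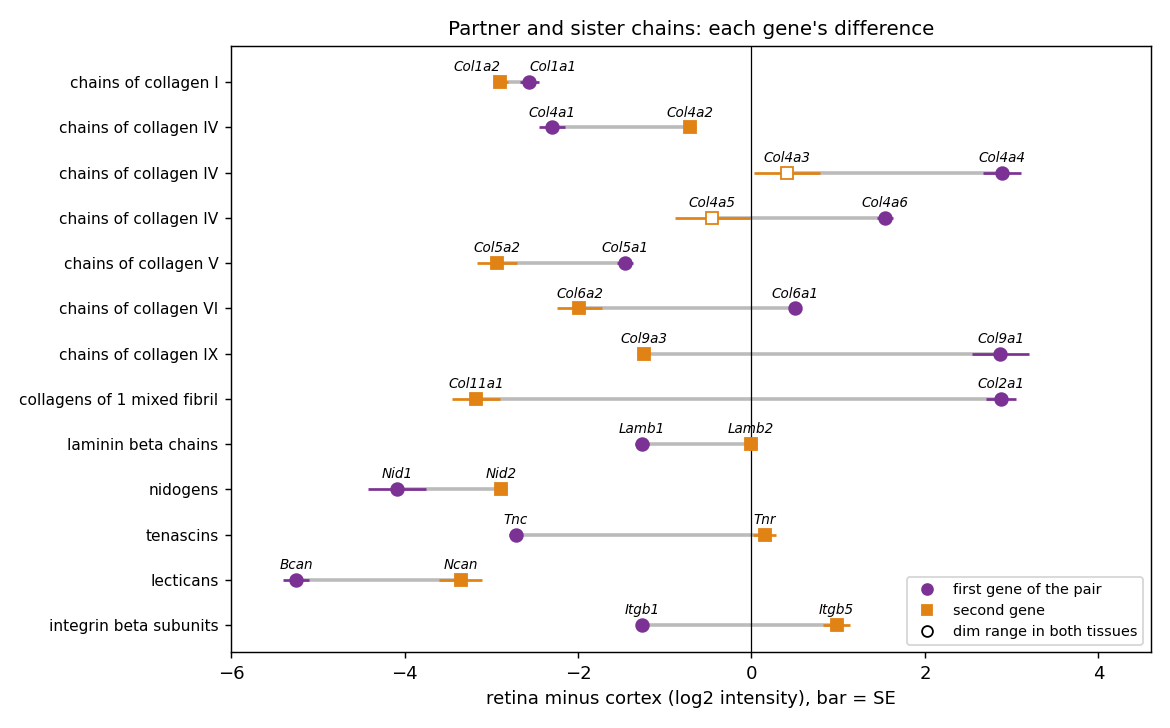
Retina minus cortex difference (log2 intensity, bar = SE) of the 2 genes of each of 13 pairs, joined by a grey line, with open symbols for genes dim in both tissues. The lines for collagen IX, the mixed fibril, collagen VI, Col4a6 with Col4a5 and the integrin beta subunits cross 0, that of the tenascins does so only just and not without normalization between arrays (Tnr -0.33), while those for collagen I, collagen V, the nidogens and the lecticans lie on the lower side.

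Other genes of the matrix pathway, from lists that hold none of the 84 genes, were divided too. Among 28 other matrix glycoprotein genes, higher calls numbered 4 and lower calls 13 (median -0.78). Vtn, the vitronectin gene, was at 19.08 ± 0.13 in retina, against 14.36 ± 0.12 in cortex (± SD over 5 arrays each), making a difference of 4.72, and Efemp1, which encodes a fibulin not covered by the symbol rule, at 4.26, whereas Thbs3 (-3.46), Matn4 (-2.93) and Mfap2 (-2.46) were lowest. Among 20 other proteoglycan genes they numbered 4 and 10 (median -0.76). Impg1 (8.04) and Impg2 (6.67), which encode the proteoglycans of the matrix around photoreceptors, and Prelp (3.86), which encodes another small leucine-rich proteoglycan, were higher, and the glypican genes Gpc2 (-3.99) and Gpc5 (-3.28) and the syndecan gene Sdc1 (-3.22) were lower.

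Lists of matrix assembly and attachment had a smaller share of calls than the glycoprotein and proteoglycan lists. Of all probes, 25.4% were called in either direction. Of 16 genes for collagen synthesis and crosslinking, 3 were higher, led by the procollagen processing enhancer gene Pcolce2 (2.79), 4 were lower, led by the procollagen protease gene Bmp1 (-1.98), and 9 were not called. Serpinh1, the collagen chaperone gene, was at -1.68. Of 14 dystroglycan complex genes, Egflam (5.94), Sntb2 (3.87), Pomt2 (1.70) and Sntb1 (1.56) were higher and Dag1, the dystroglycan gene, was lower (-1.32, dim in retina). In the integrin adhesion complex list, 1 of 14 genes was higher (Tln1, talin, 1.01), 3 were lower (Ptk2b, Rsu1 and Lims2, at -2.84, -1.89 and -1.10) and 10 were not called. In the hyaluronan list, Cd44, the hyaluronan receptor gene, was higher (1.18), Has3, Hapln2 and Hapln1 were lower (-2.26, -2.25 and -1.38), and 6 of 8 genes were dim in both tissues.

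Markers of several other cell types differed between the tissues too. Of 9 fibroblast and meninges markers outside the 84 genes, 7 were lower in retina, 4 of them (Aldh1a2, Cdh1, Foxc1 and Foxc2) from values dim in both tissues, and 2 were not called (median -1.77). In all, they summed to an intensity of 12289 to 14315 on the retina arrays, against 24491 to 26758 on the cortex arrays. Most of the retina sum came from the 2 genes not called, Crabp2 and Thy1. Crabp2 was at 12.38 in retina, against 13.20 in cortex, and Thy1 at 12.04, against 11.31. For Thy1, every retina value lay above the cortex values. In the same order, sums for 10 pericyte and smooth muscle markers, 3 of them lower, were 14116 to 18976 and 31768 to 36253, and those for 10 endothelial markers, 3 higher and 3 lower, were 109630 to 122083 and 97519 to 102336. Most of the endothelial sum was Kdr in retina (16.15, against 13.98 in cortex) and Cldn5 in cortex (15.92, against 13.89 in retina). The 3 lower pericyte and smooth muscle markers were Cspg4 (-3.12) and Notch3 (-2.99), both dim in retina, and Rgs5 (-1.05). Of the defining mural genes, Pdgfrb, Acta2, Tagln and Myh11 were dim in both tissues. Toward retina, 5 of 8 pigment epithelium markers, with a sum of 395706 to 530593 in retina and 39151 to 43463 in cortex, and 3 of 6 lens markers, with 81017 to 97178 and 2647 to 3657, were higher. Most of the pigment epithelium sum came from Rlbp1 (18.40 in retina, against 15.25 in cortex), which Müller glia also express and which stands in their list as well. The pigment epithelium genes Best1, Mitf and Tyr and the lens genes Mip, Gja3 and Bfsp1 were dim in both tissues.

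Of 7 cartilage and sclera markers, Cnmd was higher (3.89), Hapln1 and Chad were lower, and these 2 lower genes, Matn1, Matn3 and Comp were dim in both tissues, beside the higher Col2a1 and Col9a1. They summed to 33000 to 36618 in retina, against 9219 to 10304 in cortex, most of the retina sum being Cnmd. Of 5 platelet markers, Pf4 (-4.95) and Gp9 (-1.07) were lower, with a sum of 6034 to 9438 in retina and 19544 to 21261 in cortex. Of 4 muscle markers, 1 was higher and 1 lower (8645 to 10574 in retina, 18481 to 19512 in cortex), and of 6 Müller glia and astrocyte markers, 2 were higher and 1 lower. What part these cells have in the differences of the matrix genes was not tested.

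**Figure D4:**
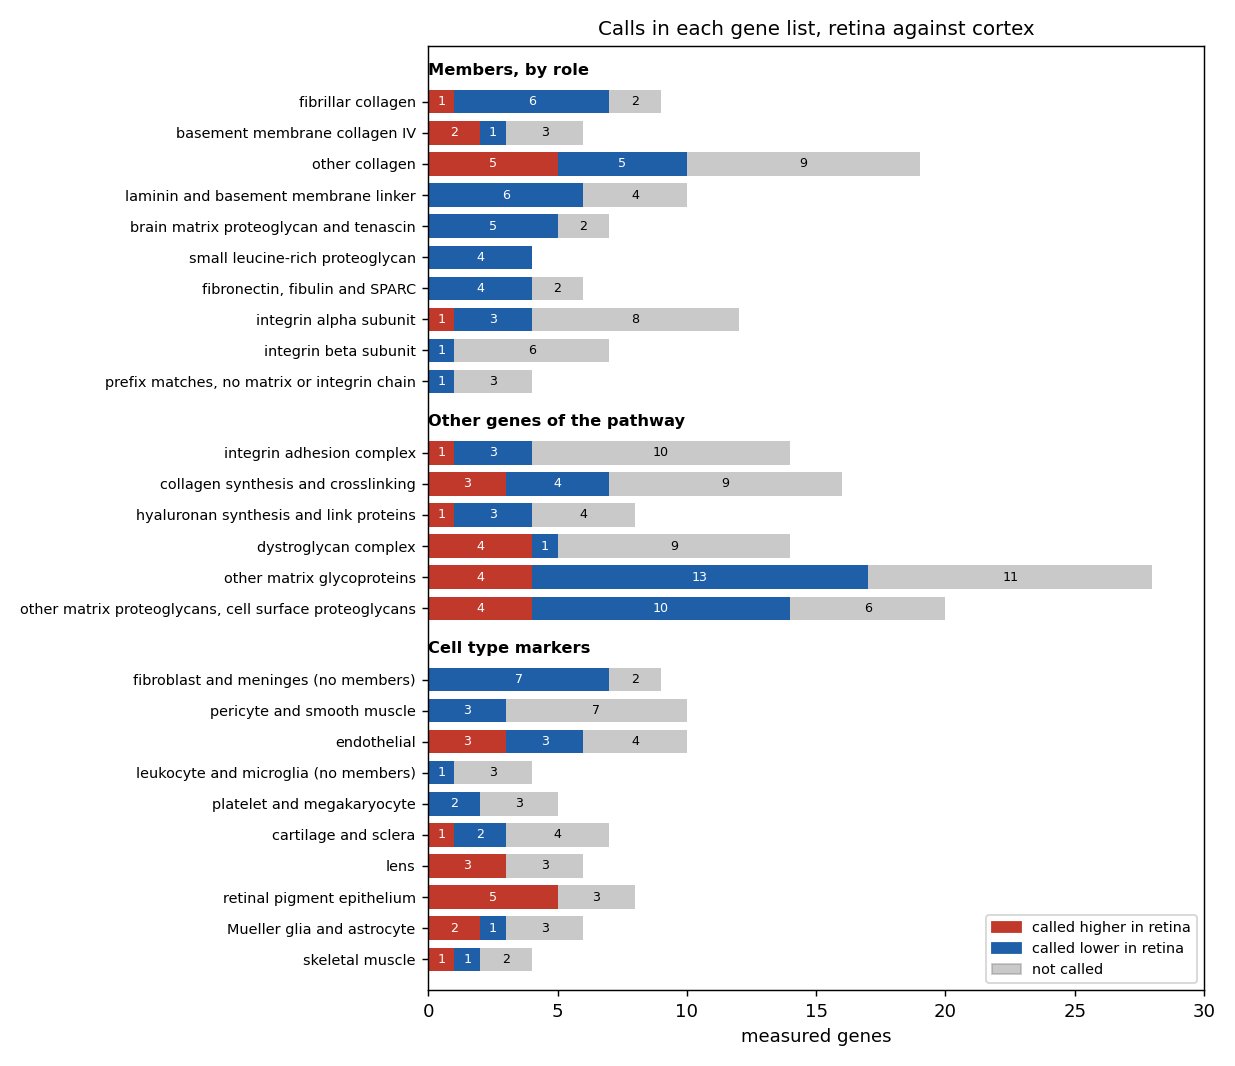
Number of measured genes called higher in retina (red), lower (blue) or not called (grey) in each role of the 84 genes, in each list of other matrix pathway genes and in each list of cell type markers. Blue bars are the longest in the lists of other matrix glycoproteins and other proteoglycans. Red bars are longer than blue ones for collagen IV and in the dystroglycan complex, lens, pigment epithelium, and Müller glia and astrocyte lists.

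Repeat arrays of 1 pool differed on these genes by a median SD of 0.393 log2 units in retina and 0.283 in cortex, against 0.332 and 0.281 over all probes. Bright genes repeated well, as with Itgb1 at 0.08 in retina and 0.12 in cortex, and dim ones poorly, as with Lum at 1.03 in retina, where it was dim, and 0.18 in cortex.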

How the data were processed

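RNA of an adult retina pool and a newborn cortex pool was hybridised to 5 arrays each, as digoxigenin-labelled cRNA read by chemiluminescence, per the labels' protocols. The intensity values deposited by the authors cover 33012 probes, with 0 values at or below 0. How the scanner signal was background-corrected or normalized is not given in the sources used here. Array medians ranged over 836 to 987 for retina, against 1255 to 1341 for cortex.

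On the log2 scale, array medians spanned 0.682, so arrays were quantile-normalized. Without this step the median difference of all probes was -0.41, so differences are relative to the level of all probes. The platform annotation gave 14411 probes 1 gene symbol and 247 several, and 18354 probes were unnamed. All 84 members matched the RefSeq table by Entrez ID. Retina minus cortex was fitted by limma 3.58.1 under R 4.3.3 (lmFit, eBayes with an intensity trend, 2-sided, Benjamini-Hochberg over all probes). Members, lists and pairs were chosen with earlier results of these data known. The rule for named genes took the 12 largest non-overlapping called members in each direction, up to 4 per role, those against their role, their partner chains, genes whose probes disagree, and up to 3 called genes per pathway list and direction. The remaining called members and other genes were named after their values were seen. Alternatives were no or median scaling, an offset of 500, a filter on dim probes, no trend, a 1.5-fold test, the replicate number as a block, gene means, and leaving out each array. The fit was tested on simulated data. For arrays, their number limits the precision.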

Additional observations from a re-analysis of the deposited data

Results flagged for a closer look

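In 5 of 104 sets of 5 arrays (52 genes, both tissues), 1 array stood apart from the other 4 by Dixon's ratio, and chance flags about 5% of sets. Retina replicate 1 read 7.21 for Col3a1, against 9.37 to 9.88 on the other retina arrays. Retina replicate 5 read 11.21 for Col9a1, against 11.57 to 11.68, and 12.36 for Dcn, against 12.56 to 12.64. Cortex replicate 4 read 9.17 for Col2a1, against 9.83 to 10.08 on the other cortex arrays, and cortex replicate 2 read 10.88 for Lamb3, against 10.16 to 10.31. Leaving out any 1 array changed none of the calls of these 5 genes.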

How the results depend on the processing

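Of the 45 called members, 37 kept their call under all 18 alternatives, 6 higher and 31 lower, while Itga11 and Col17a1 were not measured under the filter on dim probes. The others were Itga9, Col17a1, Col8a1, Acan, Itga11, Itgb1bp2, Lama4 and Bgn, of which Col8a1 lost its call only without normalization and Lama4 (-0.90) and Bgn (-0.98) only with the offset of 500. No called member changed sign, while several members that were not called did, among them Tnr, Lamb2 and Itgb7, which no fit called. Tnr was at -0.33 without normalization. Lamb2 was at 0.15 with median centring and slightly above 0 without retina replicates 3 or 5 or cortex replicates 2 or 3. Itgb7 ran from -0.19 to 0.03 on leaving out single arrays. Counts of higher and lower members were 6 and 39 without normalization, 11 and 35 with median centring, 7 and 31 with the offset, 7 and 33 against a 1.5-fold difference, and 9 to 11 and 34 to 37 on leaving out single arrays. With the replicate number as a block (replicate block) they were 9 and 36, as without it. Same-numbered deviations correlated at -0.02 to 0.03, and 3 of 5 retina arrays correlated best with their own number. These values do not settle whether the numbers only name the arrays. The median difference of the members, -0.23, was -0.72 without normalization (all probes -0.41), -0.12 with the offset, -1.26 without probes below the median of all probes in both tissues (59 members left, 8 higher and 35 lower, by construction the brighter ones), and -0.34 to -0.20 on leaving out single arrays, being -0.34 without retina replicate 1. The median SD was 0.341 in retina without normalization, 0.354 with median centring, 0.188 with the offset and 0.328 to 0.406 without single arrays. In cortex it was 0.161 with the offset and 0.243 to 0.283 without single arrays. Where it is not named, the cause was not tested. Dim signal limits all 33 members that lay in the dim range in both tissues.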
